A study of Mus musculus with 12 samples.

Results

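The litter-by-sex interaction asks whether being raised in a small litter left a different mark on RNA levels in the hypothalamus of female (XX) and male (XY) mice, and above all whether a gene that was higher after small-litter rearing in one sex was lower in the other. It was measured as the female litter change (small-litter females minus control females) minus the male litter change (small-litter males minus control males), so a positive value means a higher litter change in females. It uses 12 of the 12 arrays of the study. The 4 groups were small-litter females, control females, small-litter males and control males, all of the inbred strain FVB/NJ-Jax and all sampled at postnatal day 180, with 3 mice per group and 1 Illumina bead array of hypothalamic total RNA per mouse. The labels number the mice as biological replicates. They do not name the litter a mouse came from or the litter sizes, so mice of a group may share a litter.

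The hypothalamus holds the neurons that control hunger, energy use, stress hormones and reproduction, and many of its cell groups differ between the sexes. In a small litter fewer pups share the mother's milk, and the model is used to study overfeeding before weaning. Adult traces of such an early difference are often looked for in feeding peptides, in genes that answer to glucocorticoids (the stress and fasting hormones of the adrenal cortex, which act through a receptor that binds DNA) and in imprinted genes, which are read from only the mother's or the father's copy and many of which act in growth and feeding. In bulk tissue fewer cells of a type and less RNA per cell cannot be told apart.

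The share of the 45281 probes that was detected ranged over the arrays, at 39.7% to 41.9%, and 13547 features (10912 with a gene name) were tested. The 9 defining hypothalamic genes looked at, among them Pmch, Hcrt, Avp, Oxt and Pomc, were detected on 12 of 12 arrays. The median bead signal was 121 to 127 in control females and 112 to 118 in small-litter females. It was 107 to 108 in control males and 103 to 108 in small-litter males. In females this signal difference cannot be told apart from litter, and its part in the interaction was not tested. Some arrays stood apart. Male small litter 2 and 3 stood apart on the first principal component, at 21.4 and 27.9 against at most 4.61 elsewhere, and had the lowest 95th percentile of bead signal (1297 and 1244, against 1398 or more). Female control 3 and male control 2 had high meningeal marker levels, at 1.05 and 1.04 (mean log2 deviation of 17 markers from their 12-array means), while male small litter 2 was at 0.31 and no other array was above -0.11. Male control 3 had low oligodendrocyte (-0.35) and microglia (-0.41) marker levels. The part of these differences in the interaction was not tested beyond the values without these arrays that are given below.

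No feature passed the interaction test (limma, Benjamini-Hochberg adjusted p under 0.05 over 13547 features; percent called 0), and the smallest adjusted p was 0.405. No feature passed for the female litter change (percent called 0, smallest adjusted p 0.999) or for the male litter change (percent called 0, smallest adjusted p 0.228) either. The values that follow are therefore differences between group means that did not pass, given as log2 values with the standard error (SE) of the fit and n = 3 per group. At an unadjusted p under 0.05 the interaction had 1322 features (9.76%), the female change 452 (3.34%) and the male change 1814 (13.4%). Of the 1322 features, 684 were positive (5.05% of all features tested) and 638 negative (4.71%).

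Litter changes of opposite sign were common but small. Over all features, 7497 (55.3%) had opposite signs in the sexes, 3959 of them higher in small-litter females and lower in small-litter males and 3538 the other way round. The median size of a change was 0.08 in females and 0.13 in males. Of the 1322 features at an unadjusted p under 0.05, 1249 (9.22% of all features) had opposite signs, which a large interaction favours by its construction. In 972 of these 1249 (77.8%) the male change was the larger of the pair. Both changes reached 0.1 in 913 of them and 0.2 in 350.

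Among the 649 features of this kind that were higher in small-litter females and lower in small-litter males, the median change was 0.16 in females and -0.32 in males. Among the 600 of the other kind it was -0.17 in females and 0.32 in males. In these features the female-minus-male difference itself often changed sign between small litters and controls, which the choice of a large interaction favours, since the interaction is the difference between these 2 values. For the first kind the median female-minus-male difference was 0.35 in small litters and -0.14 in controls, with opposite signs in 513 of 649 features. For the second kind it was -0.33 in small litters and 0.18 in controls, with opposite signs in 479 of 600. Over all features tested, which were not chosen in that way, 5271 of 13547 (38.9%) had sex differences of opposite sign. Of 358 X-linked genes, 34 (9.50%) were among the 1249, against 987 of 10545 genes on other chromosomes (9.36%).

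**Figure D1:**
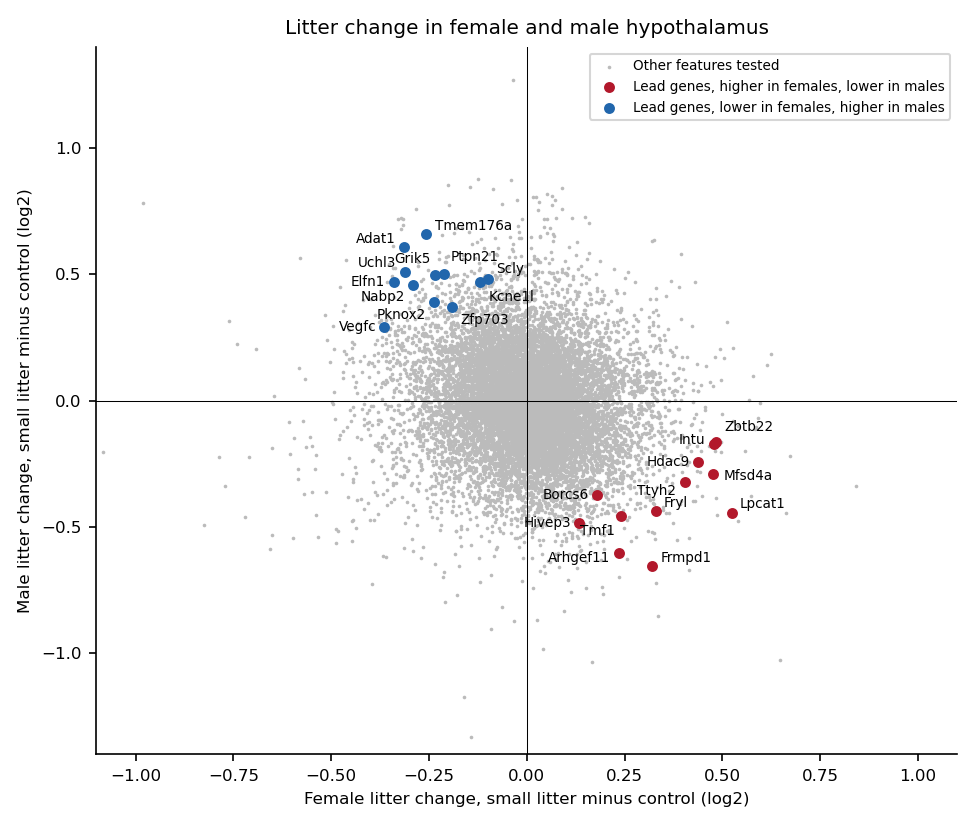
Litter change in females (x axis) against litter change in males (y axis), both small litter minus control in log2 units, for all 13547 features (grey; 6 lie outside the axes) and the 24 lead genes (coloured). Points to the lower right and upper left of the zero lines have opposite signs in the sexes, as 55.3% of the features do, and the lead genes lie at the outer edge of those areas because they were chosen for a small interaction p.

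The strictest form of crossing, in which the 3 small-litter arrays lay wholly above the 3 controls in one sex and wholly below them in the other, was met by 136 features (1.0%), 74 of them higher and 62 lower in small-litter females. By comparison, 62 features (0.458%) were separated in the same direction in both sexes. In females alone 1300 features (9.60%) did not overlap, and in males alone 2011 (14.8%). Of the 136 features 113 had a gene name.

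The 24 lead genes are the 12 named genes in each direction with the smallest interaction p among those detected on all 12 arrays with opposite litter changes. All 24 had an adjusted p of 0.405 (limma). In each direction, 8 of 12 lead genes had groups that did not overlap in either sex, against 1.0% of all features separated in opposite directions. The choice of a small interaction p with opposite changes favours such separation. Their interactions ranged from 0.55 to 0.98 for those higher in small-litter females and from -0.92 to -0.56 for those lower. All 24 kept the sign of both litter changes in each of 24 alternative settings. Those settings reuse the arrays on which the genes were chosen, which favours kept signs, so this is no independent evidence.

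The lead genes higher in small-litter females and lower in small-litter males include regulators of transcription. Zbtb22, a zinc finger protein with a BTB domain, had log2 intensities of 7.72, 7.76 and 7.63 in small-litter females and 7.15, 7.25 and 7.26 in control females, and 7.23, 6.99 and 7.20 in small-litter males and 7.37, 7.28 and 7.27 in control males. Its change was 0.48 in females and -0.16 in males, and the interaction 0.65 ± 0.13. The small-litter females stood clear of the other 9 arrays, and the male groups were separated only narrowly. Hdac9, a class IIa histone deacetylase that restrains transcription, had 8.22, 8.07 and 7.91 in small-litter females and 7.74, 7.41 and 7.73 in control females, and 7.77, 7.56 and 7.67 in small-litter males and 7.95, 7.91 and 7.88 in control males. The groups overlapped in neither sex, with changes of 0.44 in females and -0.24 in males. Hivep3, a large zinc finger protein that binds kappa-B motifs, had an interaction of 0.62 ± 0.15 that came mostly from males (-0.48, against 0.13 in females). The female groups of Hivep3 overlapped.

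Other genes on that side act at membranes, the cytoskeleton and organelles. Frmpd1, a protein with FERM and PDZ domains, had 6.37, 6.31 and 6.58 in small-litter females and 5.95, 6.24 and 6.11 in control females, and 6.04, 5.97 and 5.73 in small-litter males and 6.501, 6.32 and 6.88 in control males. Its interaction of 0.98 ± 0.21 was the largest of the lead genes, and its groups overlapped in neither sex. Arhgef11, an exchange factor that activates the small GTPase RhoA, had 9.57, 9.63 and 9.71 in small-litter females and 9.18, 9.53 and 9.49 in control females, and 9.45, 8.93 and 8.91 in small-litter males and 9.65, 9.75 and 9.70 in control males. In males, replicates 2 and 3 of the small-litter group lay far below the controls and replicate 1 lay near them.

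Intu, which is needed to build primary cilia, had 6.08, 6.05 and 6.09 in small-litter females and 5.48, 5.74 and 5.57 in control females, and 5.85, 5.97 and 5.76 in small-litter males and 5.93, 6.14 and 6.01 in control males. Its female change of 0.48 exceeded its male change of -0.17, and the male groups overlapped. Borcs6, a subunit of the BORC complex that positions lysosomes, had 9.40, 9.501 and 9.48 in small-litter females and 9.23, 9.25 and 9.36 in control females, and 9.39, 9.21 and 9.16 in small-litter males and 9.63, 9.64 and 9.62 in control males. Both pairs of groups were separate, and the interaction was 0.55 ± 0.13. The other probe of Borcs6 had an interaction of 0.11, with both litter changes below 0.

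Fryl, a homologue of the Drosophila protein Furry, had 7.25, 7.32 and 7.43 in small-litter females and 6.98, 6.97 and 7.05 in control females, and 6.90, 6.36 and 6.74 in small-litter males and 7.13, 7.10 and 7.08 in control males. This probe was separated in both sexes (interaction 0.77 ± 0.17), but of 4 further probes of Fryl, all dimmer, 2 had interactions of opposite sign, at -0.02 and -0.06. The remaining lead genes of this side had interactions of 0.73 for Ttyh2, 0.77 for the transporter-like Mfsd4a, 0.70 for the Golgi protein Tmf1 and 0.97 for Lpcat1, which adds acyl chains to lysophosphatidylcholine.

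**Figure D2:**
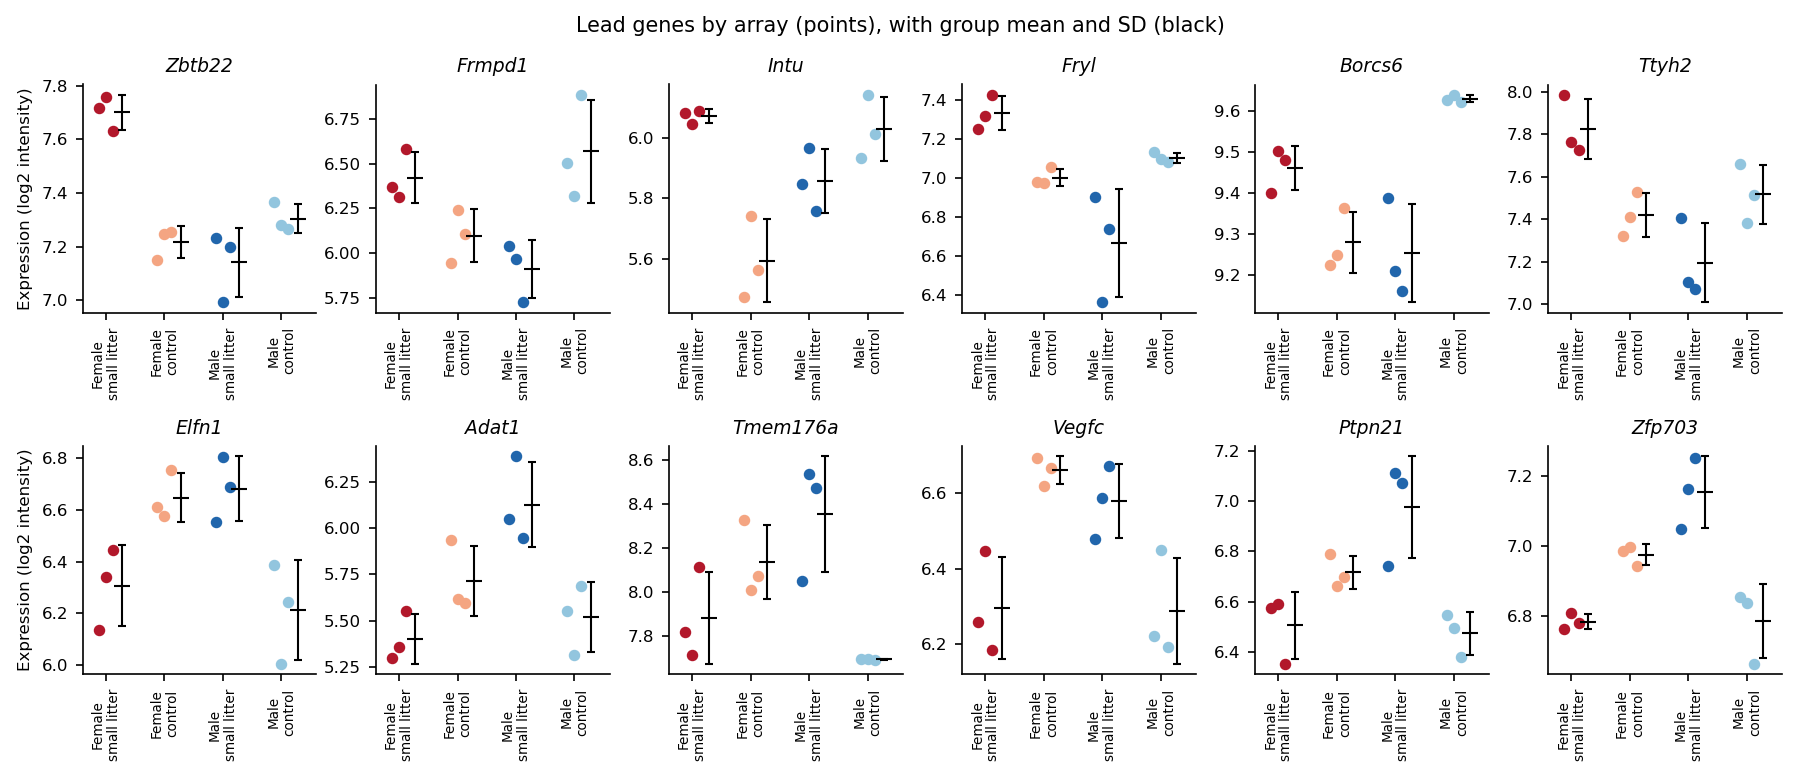
Log2 intensity on each array (points, replicates 1 to 3 from left to right) of the 6 lead genes with the smallest interaction p in each direction, with group mean and SD in black. In the upper row small-litter females lie above control females and small-litter males lie mostly below control males, and in the lower row the order is turned; each panel has its own axis, which does not start at 0.

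The lead genes lower in small-litter females and higher in small-litter males include Grik5 and Elfn1, which act at synapses. Grik5, the GluK5 subunit of kainate-type glutamate receptors, had 7.30, 7.06 and 7.18 in small-litter females and 7.44, 7.43 and 7.38 in control females, and 7.58, 7.80 and 8.09 in small-litter males and 7.27, 7.30 and 7.41 in control males. Its changes were -0.23 in females and 0.50 in males, its groups overlapped in neither sex, and its other probe had an interaction of -0.45. Elfn1, a postsynaptic adhesion protein that binds presynaptic metabotropic glutamate receptors, had 6.14, 6.34 and 6.44 in small-litter females and 6.61, 6.58 and 6.76 in control females, and 6.55, 6.80 and 6.69 in small-litter males and 6.39, 6.01 and 6.24 in control males. The interaction of Elfn1 was -0.81 ± 0.17, with no overlap in either sex.

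Arc and Begain were also among the genes separated in both sexes, named for the size of the smaller of their 2 litter changes. Arc, an immediate early gene whose product regulates glutamate receptor uptake, had 6.71, 7.08 and 7.21 in small-litter females and 7.504, 7.24 and 7.28 in control females, and 7.01, 7.45 and 7.29 in small-litter males and 6.88, 6.91 and 6.39 in control males. Its interaction was -0.87 ± 0.24 (limma adjusted p = 0.406). Begain, a binding partner of the scaffold PSD-95, had 6.13, 5.93 and 6.23 in small-litter females and 6.43, 6.44 and 6.39 in control females, and 6.63, 7.14 and 7.76 in small-litter males and 6.43, 6.41 and 6.53 in control males. Its male values spread over more than 1 log2 unit, and the interaction was -1.04 ± 0.29 (limma adjusted p = 0.406). Dlg4, which encodes PSD-95 itself, had changes of -0.13 in females and 0.46 in males. Over the 32 measured glutamate receptor and postsynaptic scaffold genes there was no common direction. In this list 14 interactions were positive and 18 negative, and 16 members had opposite signs (50%, against 55.3% over all features). At an unadjusted p under 0.05 (limma) there was 1 positive member (3.1%, against 5.05% of all features) and 3 negative ones (9.4%, against 4.71%). Gria4 (AMPA receptor subunit) had an interaction of -0.52 ± 0.21 and Gria3, another AMPA subunit, 0.28 ± 0.13.

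Further lead genes of this side act on proteins, RNA, DNA and vessels. Uchl3, a ubiquitin hydrolase, had 9.80, 9.66 and 9.64 in small-litter females and 10.10, 9.95 and 9.99 in control females, and 9.88, 10.46 and 10.53 in small-litter males and 9.78, 9.75 and 9.82 in control males. Its groups were separate in both sexes (interaction -0.82 ± 0.20), and male small litter 1 lay next to the controls. Vegfc, a growth factor of lymphatic vessels, had 6.26, 6.45 and 6.18 in small-litter females and 6.69, 6.62 and 6.67 in control females, and 6.48, 6.59 and 6.67 in small-litter males and 6.22, 6.45 and 6.19 in control males. Its change was larger in females (-0.36) than in males (0.29), and neither pair of groups overlapped.

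Adat1, which deaminates adenosine in transfer RNA, had 5.30, 5.36 and 5.55 in small-litter females and 5.93, 5.61 and 5.59 in control females, and 6.05, 6.39 and 5.94 in small-litter males and 5.55, 5.31 and 5.69 in control males. Its interaction was -0.92 ± 0.20, with a narrow gap between the female groups. Tmem176a, a transmembrane protein, had an interaction of the same size (-0.92 ± 0.20), with 7.69 on each of the 3 control males against 8.05, 8.54 and 8.47 in small-litter males. The female groups of Tmem176a overlapped. The others were Ptpn21 (a FERM-domain tyrosine phosphatase, -0.71), Zfp703 (a zinc finger co-repressor, -0.56), the homeobox gene Pknox2 (-0.63), Nabp2, a single-stranded DNA binding protein of DNA repair (-0.75), the X-linked potassium channel regulator Kcne1l (-0.59) and the selenocysteine lyase gene Scly (-0.58). Of the 24 lead genes, 9 had 12 further detected probes, of which 9 had an interaction of the same sign and 5 the same sign for both litter changes; the second probe of Zfp703 was at 0.07.

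One array moved the number of features that passed. In 9 of the 12 lead genes lower in small-litter males and 11 of the 12 higher in them, replicate 1 was the small-litter male nearest to the male control mean. Over the 649 features higher in small-litter females and lower in small-litter males, the median difference from the male controls was -0.15 for male small litter 1 and -0.39 for the mean of male small litter 2 and 3. Over the 600 of the other kind these medians were 0.17 and 0.38. Male small litter 2 and 3 are the 2 arrays that stood apart on the first principal component; what set them apart was not tested.

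Without male small litter 1, 190 of the 13503 features tested in that fit passed the interaction test (limma adjusted p under 0.05). Of the 190, 108 were positive and 82 negative, and 176 had litter changes of opposite sign. The small-litter males left in that fit were the 2 arrays that stood apart. The 190 included 16 of the 24 lead genes, with adjusted p of 0.0223 for Uchl3, 0.0324 for Arhgef11, 0.0394 for Grik5, 0.0443 for Zbtb22 and 0.0467 for Elfn1 (limma). The lead genes were chosen for a small interaction p on arrays that this fit reuses. That choice favours their passing, so the 16 are no independent evidence. Cd200, a neuronal surface protein that signals to microglia, had -0.14 in females and 1.23 in males in that fit. Mapk8ip1, a scaffold of JNK signalling, had 0.10 in females and -1.24 in males, and Gabarap, an autophagy protein, -0.18 in females and 0.59 in males. These 3 were named after their values were seen. Without male control 3, 1 feature passed, and leaving out any other single array gave 0. Without both male small litter 2 and 3, the features at an unadjusted p under 0.05 with opposite signs numbered 424 in place of 1249. That fit holds 1 small-litter male, which is assumed to vary like the other groups, so the part of the 2 arrays in the 1249 cannot be read from it.

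The glucocorticoid response genes had the most one-sided interaction of the function lists. Of 26 measured members, 24 had a positive interaction (percent positive over all features tested 51.8), and 17 had litter changes of opposite sign, 16 of them higher in small-litter females and lower in small-litter males. The median change was 0.09 in females and -0.23 in males, and the median interaction 0.33, against 0.00, -0.01 and 0.01 over all features. At an unadjusted p under 0.05 there were 6 positive members (23.1%, against 5.05% of all features) and no negative one (limma, none passed after adjustment). In either direction, the share at that p was 9.76% of all features and was higher in some smaller lists than here. It was 4 of 11 sex steroid receptor and dimorphic genes (36.4%, 3 of them negative) and 4 of 15 ependymal and tanycyte markers (26.7%, 3 of them negative). Choroid plexus markers had 3 of 13 (23.1%, all negative). Map3k6 and Zbtb16 were each undetected on every array of at least 1 group, and Map3k6 passed the detection filter only through control males, where it was high. Without both, 5 of 24 members were positive at that p (20.8%), 22 had a positive interaction, 15 had opposite signs, and the median interaction was 0.32. The list was already known to differ in these data, so its direction is no independent evidence.

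In this list, 3 genes hold a match to the sequence that the glucocorticoid receptor is known to bind close to their start. The sequences are shown because the list is defined by that receptor. They are the 250 bases before the annotated start of each gene, on the + strand of GRCm38.p6, from RefSeq, and the capitals mark the match to GNACA followed, after any 3 bases, by TGTNC, which reads the same on both strands. Map3k6 lies at chr4:133240568-133240817, Mt1 at chr8:94178839-94179088 and Sgk1 at chr10:21993640-21993889.
Map3k6: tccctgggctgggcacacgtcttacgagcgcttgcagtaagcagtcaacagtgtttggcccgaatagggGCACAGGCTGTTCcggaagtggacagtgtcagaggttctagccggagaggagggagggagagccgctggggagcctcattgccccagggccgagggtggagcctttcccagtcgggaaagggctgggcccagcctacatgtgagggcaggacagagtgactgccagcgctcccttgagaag
Mt1: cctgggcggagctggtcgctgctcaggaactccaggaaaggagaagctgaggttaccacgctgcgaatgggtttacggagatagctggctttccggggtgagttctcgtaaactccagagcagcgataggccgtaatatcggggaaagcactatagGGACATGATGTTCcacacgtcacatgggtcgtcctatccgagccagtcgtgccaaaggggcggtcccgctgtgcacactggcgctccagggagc
Sgk1: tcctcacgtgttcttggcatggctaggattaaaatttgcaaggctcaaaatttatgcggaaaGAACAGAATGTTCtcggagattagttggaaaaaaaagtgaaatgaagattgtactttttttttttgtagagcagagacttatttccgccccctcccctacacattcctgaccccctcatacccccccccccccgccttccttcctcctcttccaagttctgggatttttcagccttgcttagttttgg
The match began 181 bases before the start in Map3k6, 94 in Mt1 and 188 in Sgk1. Of the 26 measured members 21 had such a window, and 3 of them (14.3%) held the motif, against 30 of 8838 tested genes with a window (0.339%) and 127 of 32851 windows in all (0.387%). A match is a description of the letters, and binding was not measured.

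Map3k6, a stress-activated kinase, was detected in the 3 control males and on no array of the other 3 groups, so its values there are at background. It had 4.52, 5.05 and 4.77 in small-litter females and 4.56, 4.58 and 4.82 in control females, and 4.57, 4.53 and 4.71 in small-litter males and 5.14, 5.06 and 5.60 in control males. The male groups did not overlap, but no size of the litter change of Map3k6 in either sex, or of its interaction, was measured. Mt2, a metal-binding metallothionein, had 6.49, 6.60 and 7.04 in small-litter females and 6.72, 6.30 and 6.26 in control females, and 6.14, 6.63 and 6.35 in small-litter males and 6.86, 6.53 and 6.95 in control males. Its groups overlapped in both sexes (interaction 0.69 ± 0.26). Its neighbour in function Mt1 had changes of 0.09 in females and -0.23 in males.

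Ddit4, an inhibitor of mTOR signalling, had 9.15, 8.83 and 8.76 in small-litter females and 8.58, 8.98 and 8.72 in control females, and 8.66, 8.33 and 8.505 in small-litter males and 8.82, 8.83 and 8.83 in control males. Only its male groups were separate (interaction 0.48 ± 0.19). Gpd1, glycerol-3-phosphate dehydrogenase, had changes of 0.24 in females and -0.23 in males (interaction 0.47 ± 0.19) and was detected on 2 small-litter and 1 control female arrays. Sgk1, a kinase that regulates ion transport, had changes of 0.08 in females and -0.66 in males. Per1, a clock gene, was one of the 2 members with a negative interaction, at -0.14 in females and 0.41 in males.

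The level of the whole glucocorticoid list was -0.02, 0.07 and 0.14 in small-litter females and -0.16, 0.14 and -0.02 in control females, and -0.11, -0.16 and -0.27 in small-litter males and 0.09, -0.13 and 0.42 in control males (mean log2 deviation from each gene's 12-array mean). Male control 3 had the highest level of the 12 arrays, and the groups overlapped in both sexes. Without male control 3 the median interaction was 0.18, and without male control 2 it was 0.48. Male control 3 was also the array with low glial marker levels and with the highest Npy; the part of these differences in the list was not tested.

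**Figure D3:**
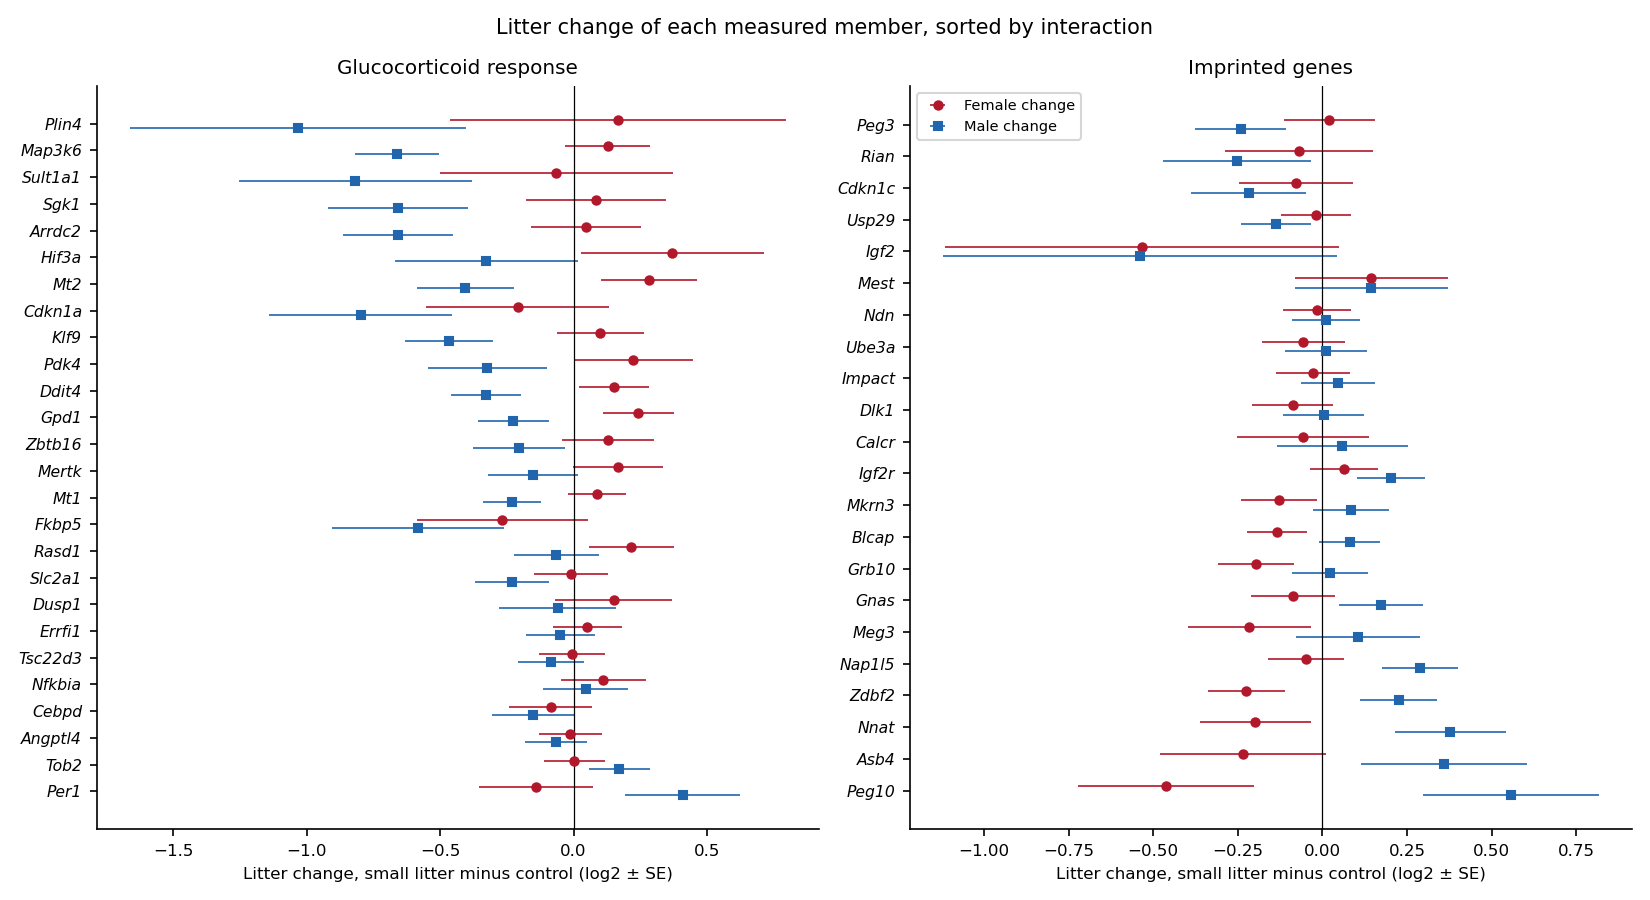
Litter change in log2 units (small litter minus control, mean difference ± SE, n = 3 per group) of each measured glucocorticoid response gene (26, left) and imprinted gene (22, right), in females (circles) and males (squares), sorted by interaction. On the left most male changes lie below 0 and most female changes at or above it, and on the right 15 genes have a female change below 0 and a male change above it; Map3k6 was detected in control males only, so its points are not measured changes.

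Imprinted genes had the opposite arrangement. Of 22 measured, 16 had opposite signs (72.7%, against 55.3% over all features), and in 15 of these the change was negative in females and positive in males. The median change was -0.08 in females and 0.07 in males, and the median interaction -0.13. In this list 3 members had an unadjusted p under 0.05 (13.6%, against 9.76% of all features), all with a negative interaction (4.71% of all features; limma, none passed after adjustment). Peg10, derived from a retrotransposon and best known in the placenta, had 5.60, 5.65 and 6.42 in small-litter females and 6.34, 6.29 and 6.42 in control females, and 5.91, 6.52 and 7.06 in small-litter males and 5.87, 5.76 and 6.19 in control males. Its interaction was -1.02 ± 0.37, and its groups overlapped in both sexes, by 1 array each.

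Zdbf2, which has been tied to growth after birth in mice, had 8.51, 8.61 and 8.88 in small-litter females and 8.93, 8.91 and 8.85 in control females, and 8.97, 9.11 and 9.18 in small-litter males and 8.80, 8.78 and 9.005 in control males. The interaction of Zdbf2 was -0.45 ± 0.16. Nnat, a small membrane protein abundant in neuroendocrine cells, had 10.51, 10.57 and 11.03 in small-litter females and 10.85, 10.75 and 11.10 in control females, and 11.002, 11.53 and 11.36 in small-litter males and 10.86, 11.05 and 10.84 in control males. All 3 Nnat probes had negative interactions (-0.58, -0.50 and -0.47). In Zdbf2 and Nnat the third small-litter female lay among the controls while the first and second lay below them. Nap1l5, a relative of nucleosome assembly proteins, had changes of -0.05 in females and 0.29 in males.

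The list level was -0.12, -0.13 and 0.09 in small-litter females and 0.00, 0.04 and 0.16 in control females, and -0.09, 0.08 and 0.08 in small-litter males and -0.09, 0.00 and -0.03 in control males. Female small litter 3 was above 2 of the 3 control females, and male small litter 1 was level with the lowest control male. Small-litter females 1 and 2 were also the arrays with the highest thalamus marker levels, which are given below. Over the removal of each array the median interaction stayed between -0.22 and -0.11. Under median scaling, in which the median of all features moved to -0.07 in females and -0.12 in males, the male median of the imprinted genes was -0.03, so their positive male sign did not hold under that scaling.

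**Figure D4:**
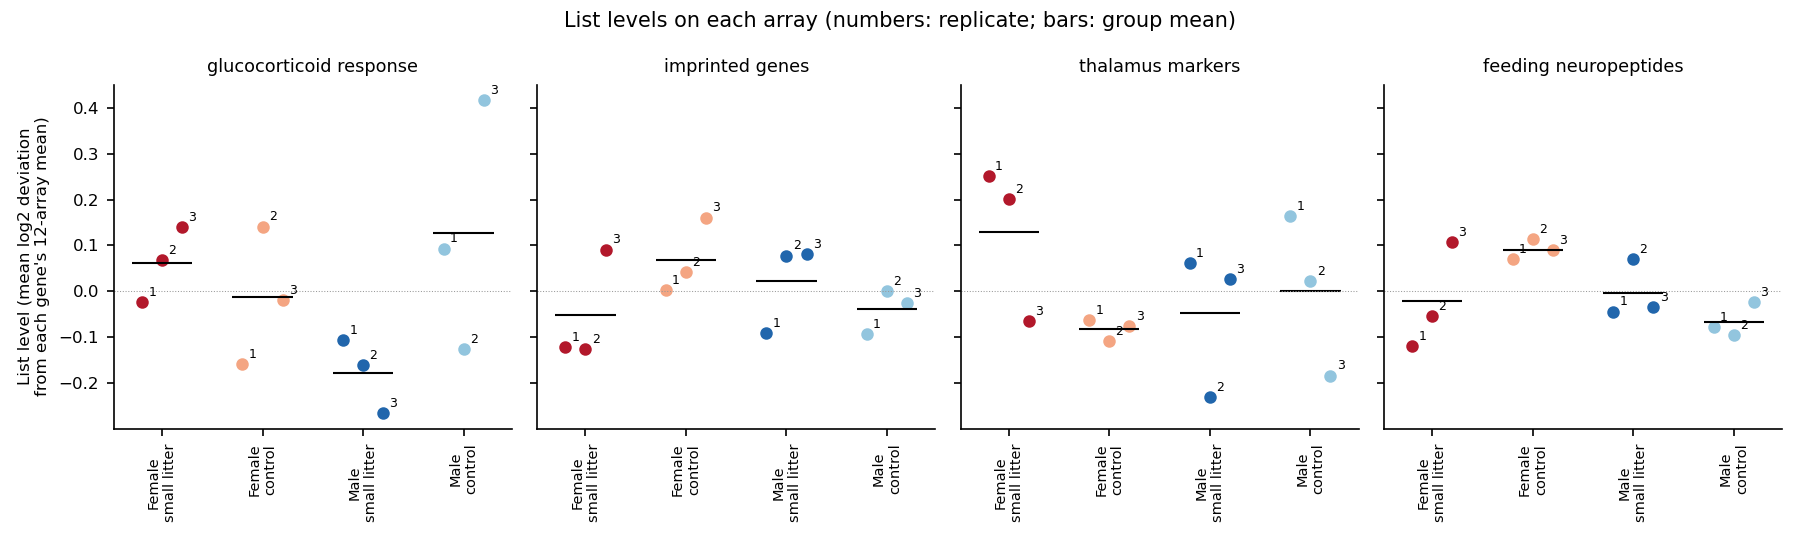
Level of 4 gene lists on each array (mean log2 deviation of the members from their 12-array means; numbers give the replicate, bars the group mean). The glucocorticoid level is highest in male control 3, imprinted genes are lowest and thalamus markers highest in small-litter females 1 and 2, and feeding neuropeptides are lowest in small-litter female 1.

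Feeding and energy balance neuropeptides had 16 of 21 negative interactions (percent negative over all features tested 48.2). The female change was negative in 17 members (positive in 50.7% of all features) and the male change positive in 12 (47.6% of all features). The medians were -0.15 in females and 0.04 in males, and 12 members had opposite signs (57.1%, against 55.3% over all features). Vgf, a precursor of peptides released from neurons, had 10.92, 11.07 and 11.42 in small-litter females and 11.24, 11.27 and 11.27 in control females, and 11.11, 11.52 and 12.13 in small-litter males and 10.98, 10.77 and 11.09 in control males. It was the only member with an unadjusted p under 0.05 (limma), which is 4.76% of the list against 9.76% of all features. The interaction of Vgf was -0.76 ± 0.29, its second probe was at -0.67, and only its male groups were separate. Ucn3, the urocortin that acts on the type 2 corticotropin-releasing hormone receptor, had an interaction of -0.46 ± 0.24. It was detected on 7 of 12 arrays, 1 of them a small-litter female and 1 a control male. Part of the Ucn3 values are therefore at background. Penk, the enkephalin precursor, had an interaction of -0.54 ± 0.29 and Tac1, the substance P precursor, -0.31 ± 0.17.

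The central pair of feeding control was not clearly split. Pomc, the precursor of the satiety signal alpha-MSH, had 6.23, 6.498 and 7.17 in small-litter females and 6.98, 7.27 and 6.68 in control females, and 6.57, 6.79 and 6.82 in small-litter males and 6.79, 6.70 and 5.77 in control males. Its changes were -0.35 in females and 0.31 in males, the interaction -0.65 ± 0.39, and the groups overlapped in both sexes. Npy, the hunger-promoting neuropeptide Y, had changes of -0.21 in females and -0.68 in males (interaction 0.47 ± 0.50). The male value rests on male control 3, at 10.92 against at most 9.76 on the other 11 arrays, and without it the interaction was -0.09. Cartpt had an interaction of -0.16 ± 0.27 and Mc4r, the melanocortin receptor, detected on 6 of 12 arrays, -0.24 ± 0.32.

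Receptors for feeding signals went both ways, with 12 positive and 9 negative interactions and 15 of 21 of opposite sign (71.4%, against 55.3% over all features). The 3 with an unadjusted p under 0.05 (14.3%, against 9.76% of all features) were all negative (4.71% of all features): Adipor1, an adiponectin receptor (-0.36 ± 0.15), the orphan receptor gene Brs3 (-0.58 ± 0.25) and Mchr1, the receptor of melanin-concentrating hormone (-0.41 ± 0.18). Brs3 was detected on 9 of 12 arrays, with 1 of 3 control males, so part of its values are at background. Of the 37 genes of insulin and leptin signalling, 23 had opposite signs (62.2%), with 21 positive and 16 negative interactions. Irs2, which links the insulin receptor to phosphoinositide 3-kinase, had 9.07, 9.03 and 9.21 in small-litter females and 8.22, 9.07 and 9.01 in control females, and 8.45, 7.63 and 7.58 in small-litter males and 8.90, 8.56 and 8.76 in control males.

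The change of Irs2 was 0.34 in females, where female control 1 stood alone below the rest, and -0.85 in males, where the groups were separate, and its interaction was 1.19 ± 0.34. Without male small litter 1 it passed (limma adjusted p = 0.0443, interaction 1.47). Pik3cd, a catalytic subunit of phosphoinositide 3-kinase, had 0.59 in females and -0.10 in males, Gsk3b, a kinase that insulin inhibits, 0.14 in females and -0.35 in males, and the growth kinase gene Mtor -0.14 in females and 0.36 in males. The second probes of Pik3cd and Mtor had interactions of the other sign, at -0.27 and 0.63.

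Thalamus markers, included because the thalamus borders the dissected block, had positive female changes in 24 of 24 members, with a median of 0.21, against -0.05 in males. Over all features the female change was positive in 50.7%. Of the 24 markers, 16 had opposite signs (66.7%, against 55.3% over all features) and 21 positive interactions (51.8% over all features). At an unadjusted p under 0.05 (limma) there were 3 members, all positive (12.5%, against 5.05% of all features). Grid2ip had changes of 0.32 in females and -0.41 in males and Scn4b 0.44 in females and -0.28 in males. The list level was 0.25, 0.20 and -0.07 in small-litter females and -0.06, -0.11 and -0.08 in control females, and 0.06, -0.23 and 0.03 in small-litter males and 0.16, 0.02 and -0.18 in control males. Small-litter females 1 and 2, which carried the higher thalamus level, were also those with the lower feeding peptide level (-0.12 and -0.05, against 0.11 in the third, and 0.07 to 0.11 in control females). Transcription factors that mark hypothalamic regions were lower in the same 2 females (-0.18 and -0.09, against 0.05 in the third, and 0.00 to 0.12 in control females). The imprinted gene level was also lower in these 2 females (-0.12 and -0.13, against 0.09 in the third, and 0.00 to 0.16 in control females). The part of the tissue block in the feeding peptide, transcription factor and imprinted gene results was not tested.

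Those 16 transcription factors had 11 negative interactions (48.2% over all features). Their medians were -0.18 in females, 0.00 in males and -0.20 for the interaction. Fezf1, a factor of the ventromedial hypothalamus, had 8.71, 9.02 and 9.19 in small-litter females and 9.30, 9.47 and 9.18 in control females, and 9.18, 9.43 and 9.26 in small-litter males and 9.01, 9.05 and 9.33 in control males. Its interaction was -0.51 ± 0.19. Nkx2-1, which patterns the ventral hypothalamus, had -0.43 ± 0.18, with changes of -0.32 in females and 0.10 in males.

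Potassium channel genes, which set the resting potential and firing of neurons, had 24 of 37 positive interactions (51.8% over all features). Of the 37, 22 had opposite signs (59.5%, against 55.3% over all features), 15 of them higher in small-litter females and lower in small-litter males. The medians were 0.07 in females, -0.08 in males and 0.11 for the interaction, which was 0.06 at the lowest and 0.17 at the highest when 1 array was left out. At an unadjusted p under 0.05 (limma) there were 4 positive members (10.8%, against 5.05% of all features) and 3 negative ones (8.11%, against 4.71%). Kcnab2, a beta subunit of voltage-gated channels, had 11.71, 11.61 and 11.35 in small-litter females and 11.30, 11.25 and 11.38 in control females, and 11.44, 11.03 and 10.87 in small-litter males and 11.49, 11.60 and 11.30 in control males. Kcnf1 had an interaction of 0.54 ± 0.21 and Kcnmb4, a regulator of the BK channel, -0.58 ± 0.23. The second probe of Kcnmb4 had an interaction of 0.03. Kcnq3, a subunit of the M-type channel, is 1 of the 4 positive members counted above. It was detected on 0 of 3 small-litter male arrays, so its male change and its interaction have no measured size. The female change of Kcnq3 was -0.17.

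Of 31 vesicle genes, 19 had positive interactions (51.8% over all features), with a median of 0.07. Syt5, a synaptotagmin, was at -0.26 in females and 0.26 in males (interaction -0.52 ± 0.16). Vamp1, a SNARE protein, was at 0.25 in females and -0.28 in males. Of 43 lysosomal genes, 24 were positive (51.8% over all features) and 26 had opposite signs (60.5%, against 55.3% over all features). Gusb, beta-glucuronidase, had -0.23 in females and 0.45 in males, and Glb1, beta-galactosidase, 0.22 in females and -0.23 in males. The interaction of Gusb was -0.68, and further probes of Gusb had 0.23, -0.08 and -0.38. Tcirg1, a proton pump subunit, differed between the sexes through males alone (0.08 in females, 0.72 in males; further probes of Tcirg1 had interactions of 0.12, 0.21 and -0.08). So did Man2b1, lysosomal alpha-mannosidase (-0.01 in females, -0.71 in males).

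Cholesterol and fatty acid synthesis genes were one-sided, mostly without crossing. Of 23, 18 had negative interactions, but only 9 had opposite signs (39.1%), and the median change was 0.02 in females and 0.14 in males. At an unadjusted p under 0.05 (limma) there were 3 members, all negative (13.0%, against 4.71% of all features). Dhcr7, which catalyses the last step to cholesterol, had -0.12 in females and 0.53 in males, and Lss, lanosterol synthase, -0.23 in females and 0.34 in males. Fdps changed in the same direction in both sexes (0.02 in females, 0.32 in males). Hsd17b7 had a positive interaction, with 0.30 in females and -0.11 in males. Immediate early genes had 15 of 21 members of opposite sign (71.4%) in both arrangements, with Jund at -0.08 in females and 0.58 in males and Jun at 0.19 in females and -0.37 in males.

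Among endoplasmic reticulum genes, 13 of 19 had opposite signs (68.4%). Calr, the chaperone calreticulin, had 0.05 in females and 0.82 in males. Pdia3, a disulfide isomerase, had the largest male change of the named genes (5.15), because its probe read 4.13 in male control 1 and 2 and was detected in only 1 of 3 control males (10.26 in replicate 3), against 10.50 to 12.21 on the other 9 arrays.

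**Figure D5:**
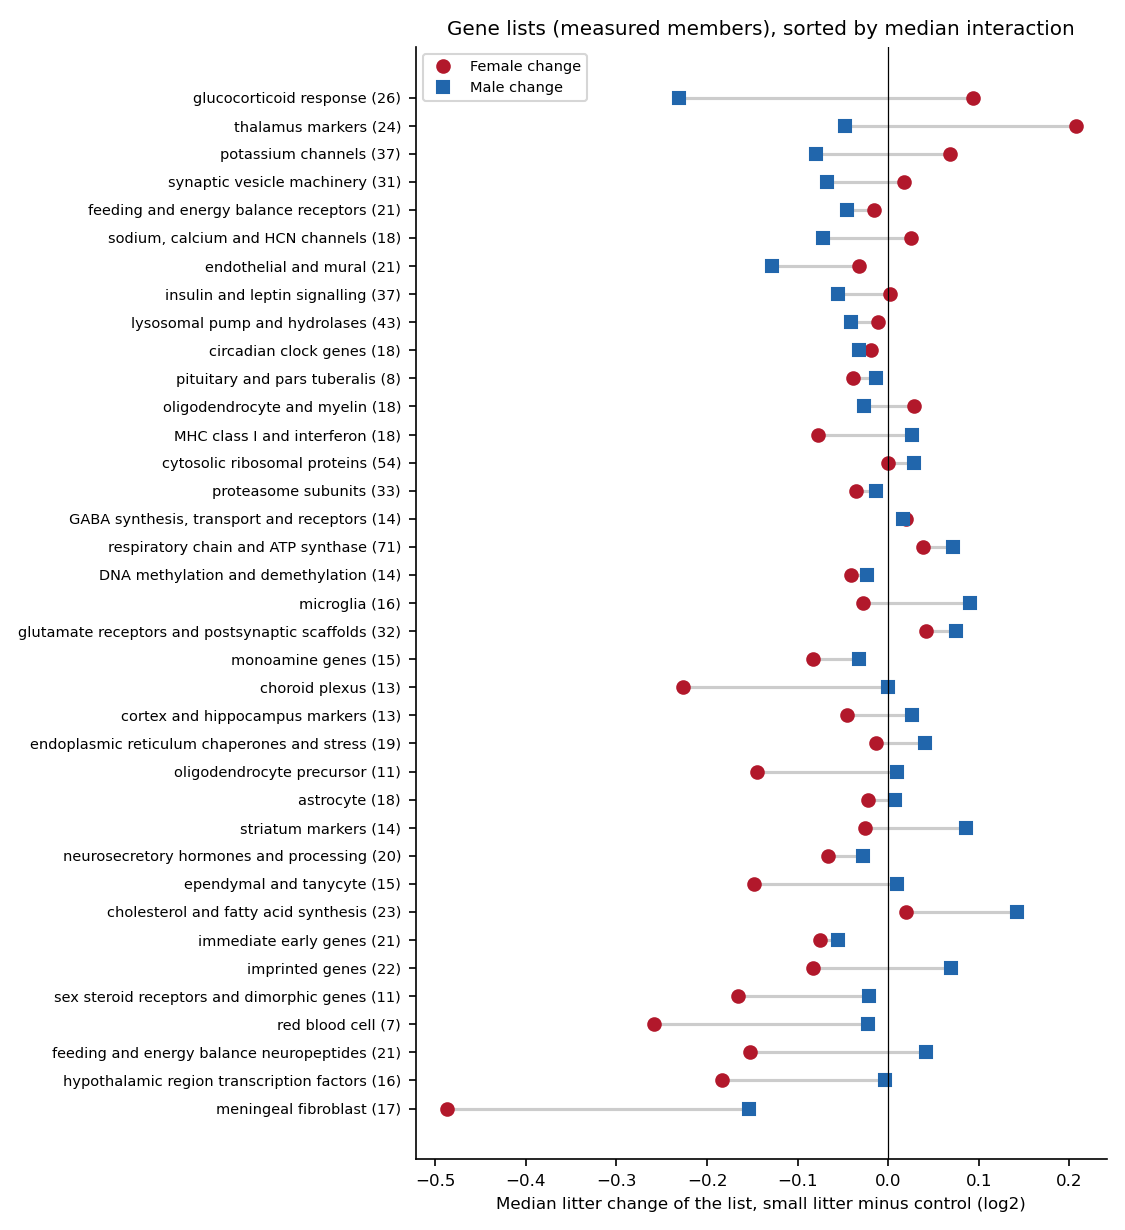
Median litter change in log2 units (small litter minus control) in females (circles) and males (squares) for the 37 gene lists, with the number of measured members in brackets, sorted by median interaction. The glucocorticoid list is at the top (0.09 in females, -0.23 in males) and the meningeal list at the bottom (-0.49 in females, -0.15 in males).

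Lists of housekeeping functions lay close to the median of all features. The median interaction was -0.02 for 54 cytosolic ribosomal protein genes, -0.04 for 71 respiratory chain and ATP synthase genes and -0.02 for 33 proteasome genes, and 42.6%, 40.8% and 63.6% of them had opposite signs. Meningeal markers had the lowest median interaction of all lists (-0.33), with negative female changes in 17 of 17 members and few of opposite sign (4). Without female control 3 that median was 0.07, and without male control 2 it was -0.74. Choroid plexus markers had a median of -0.23 in females and 0.00 in males, with Ttr, transthyretin, at -1.47 in females and 0.93 in males (interaction -2.40 ± 1.07). Red blood cell transcripts had medians of -0.26 in females and -0.02 in males. Astrocyte, microglia and oligodendrocyte markers had median interactions of -0.08, -0.05 and 0.01.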

How the data were processed

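Hypothalamic RNA of 12 FVB/NJ-Jax mice (3 per group; postnatal day 180) was measured on Illumina bead arrays, 1 array per mouse. The authors deposited bead intensity and a detection p-value per probe, not normalized per the file headers, and log2 values that, per the submitters' processing notes, involved lumi (version not given in the sources used here). The deposited log2 values correlated at 0.9998 or more with the log2 intensity of the same array and were an alternative.

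Intensities were background-corrected by normexp with negative controls inferred from the detection p-values (offset 16), quantile-normalized and taken to log2 (limma 3.58.1, R 4.3.3). Probes with detection p under 0.01 on 3 or more of 12 arrays were kept (19704 of 45281). The probe with the highest mean stood for a gene, and 2635 probes without a name were kept as features. Of the probes in the annotation, 18003 had 1 symbol, 6 had several and 2782 were not listed.

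Group means were fitted with lmFit and eBayes over all 12 arrays (8 residual degrees of freedom), and p-values were adjusted by the Benjamini-Hochberg method over 13547 features. The number of arrays limits the precision. The fit was also run on simulated data with independent noise and no arrays that stood apart. That run cannot show how the fit behaves on the present arrays. Named genes were, in each direction, the 12 named genes detected on 12 arrays with opposite litter changes and the smallest interaction p, the 6 separated in both sexes with the largest smaller change, up to 4 members of each list (3 for marker lists) with the smallest interaction p, and Npy, Pomc, Cartpt and Mc4r always. Mt1 and Sgk1 stand outside that rule and were named after their values were seen. Members, lists and tests were chosen with earlier results of these data known. Of 18 same-numbered pairs of mice, 1 had a correlation of deviations over 0.1 (range -0.126 to 0.111). Pairs with different numbers reached 0.168. These correlations cannot show whether same-numbered mice share a litter, so pairing by replicate number stays unknown. Alternatives changed the normalization, filter, probe rule, weights and block, and left out arrays; listing what passed without male small litter 1, and the glucocorticoid list without its undetected members, were added after seeing the data.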

Additional observations from a re-analysis of the deposited data

Results flagged for a closer look

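In 136 features the small-litter arrays lay wholly on one side of the controls in females and wholly on the other side in males. The difference was not tested as a set: it is 1.0% of the 13547 features, and none of them passed the interaction test after adjustment (limma), while 130 had an unadjusted p under 0.05.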

How the results depend on the processing

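Of 84 named genes fitted in all 24 settings, 82 kept the sign of their interaction. Another 11 entered 19 to 23 settings, and 10 of them kept it in those. Most of these genes were chosen on the same arrays, which favours a kept sign. Leaving out 1 array gave 0 to 190 interaction calls (190 without male small litter 1, 1 without male control 3), 0 to 1 female calls and 0 to 660 male calls (660 without male small litter 1). The range over those 12 settings was 870 to 2159 for features at an unadjusted p under 0.05 with opposite signs, 168 to 383 for features separated in opposite directions, 89 to 201 for those separated in the same direction, and 917 to 2460 for interactions at an unadjusted p under 0.05. It was 51.2% to 57.7% for opposite signs, 0.18 to 0.48 for the glucocorticoid median interaction, -0.22 to -0.11 for imprinted genes, 0.15 to 0.37 for thalamus markers and -0.25 to -0.17 for feeding neuropeptides. The opposite-sign count of 1249 was 2631 without the detection filter, 2210 with array weights and 424 without male small litter 2 and 3, a fit with 1 small-litter male that is assumed to vary like the other groups. The 136 separated features were 85 under median scaling, 259 without the detection filter, 417 without female control 3 and male control 2, and 264 without male small litter 2 and 3. Array weights gave medians of -0.26 for feeding neuropeptides and 0.42 for thalamus markers. The cause of these shifts was not tested; removing arrays makes separation easier by construction.

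With the replicate number as a block, calls stayed at 0 and the opposite-sign count was 1187. Of 85 list medians smaller than 0.1 in size, 55 turned sign when 1 array was left out, among them the thalamus male median (-0.13 to 0.05), the microglia (-0.09 to 0.03) and oligodendrocyte (-0.05 to 0.15) interactions, feeding receptors (-0.08 to 0.13), endoplasmic reticulum genes (-0.15 to 0.0057) and choroid plexus (-0.18 to 0.01). Of 27 medians of 0.1 or more, 6 turned, and these are given here with the genes that did. The Mc4r interaction was 0.073 with array weights. Over the removal of each array, the interaction of Npy ranged between -0.087 (male control 3 left out) and 0.76, that of Cartpt between -0.32 and 0.040 (female control 3 left out), the immediate early gene median between -0.31 and 0.046 (female control 2 left out), the meningeal median between -0.74 and 0.067 (female control 3 left out) and the red blood cell median between -0.35 and 0.030 (male control 1 left out). The male median ranged between -0.44 and 0.21 for meningeal markers and between -0.21 and 0.00020 for endothelial markers, in both highest with male control 2 left out. The female median of oligodendrocyte precursor markers ranged between -0.22 and 0.017 (female control 3 left out). Leaving out female control 3 and male control 2 together gave 0.21, 1.6e-04 and 0.017 for these 3 medians, and leaving out male small litter 2 and 3 gave 0.16 for immediate early genes. The bead chip as a block was not run, since the headers name no chip.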
